A study of Mus musculus with 7 samples.

Results

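The genes described here are 38 cell proliferation genes, read out in mouse lumbar dorsal root ganglia after a sciatic nerve injury. They were taken as the rows of the deposited expression table whose gene name was on a list of cyclins, replication factors and mitotic regulators. All 38 were found once each among 54309 genes. Dorsal root ganglia hold the cell bodies of sensory neurons, which have left the cell cycle, together with satellite glia, Schwann cells, vessel cells, macrophages and other immune cells that can divide. The samples were ganglia of lumbar levels 4 to 6 from male C57bl/6 mice aged 6 to 8 weeks, taken 72 h after injury. The nerve was injured at Zeitgeber time 20 in 4 samples (ZT20) and at Zeitgeber time 8 in 3 samples (ZT8). Zeitgeber time counts the hours from lights on. Each group's ganglia were dissected at the clock time of its own injury, so the time of injury and the time of dissection cannot be told apart. Every group was injured, and no uninjured ganglia are among the samples, so the comparison is between clock times only. Ganglia were dissociated with enzymes and passed through an albumin gradient that enriches neurons, which leaves an unstated share of other cells. The labels do not say whether a sample is 1 animal or a pool, so p-values measure the spread between these samples.

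A cell that divides passes a fixed order of steps. D-type cyclins start the passage through G1, and E2F factors then switch on genes for DNA replication. CDK1 with cyclins A and B starts mitosis, and the anaphase-promoting complex ends it by destroying those cyclins. D-type cyclins are also made by many resting cells, whereas Mki67, Top2a, Ccnb1 and Plk1 are read mainly from cells in late S phase, G2 and mitosis. In bulk RNA, fewer dividing cells and less RNA per dividing cell cannot be told apart.

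Promoters of cell cycle genes hold known short DNA words, and 5 promoters are shown because their genes carry the main patterns below. Cdc20, Plk1 and Cdk1 stood high in 1 library, Aurka passed the test between clock times, and Mcm6 is a replication gene with E2F words. Each window runs from 250 bases before to 50 bases after the annotated start, 5′ to 3′ along the gene, from RefSeq (GRCm38.p6). Capitals mark CCAAT (the box bound by NF-Y), TTTGAA or TTCGAA (the cell cycle homology region of mitotic genes) and TTTCCCGC, TTTGGCGC, TTTCGCGC or TTTGCCGC (E2F sites), searched on both strands. The windows are chr4:118437294-118437593 (minus strand) for Cdc20, chr7:122159185-122159484 (plus) for Plk1, chr10:69352863-69353162 (minus) for Cdk1, chr2:172370521-172370820 (minus) for Aurka and chr1:128359656-128359955 (minus) for Mcm6.
Cdc20: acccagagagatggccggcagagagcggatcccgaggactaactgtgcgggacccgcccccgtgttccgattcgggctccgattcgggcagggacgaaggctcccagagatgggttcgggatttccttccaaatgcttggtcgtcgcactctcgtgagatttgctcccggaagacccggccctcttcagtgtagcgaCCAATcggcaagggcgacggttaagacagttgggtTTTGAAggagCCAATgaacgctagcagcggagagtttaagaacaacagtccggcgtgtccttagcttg
Plk1: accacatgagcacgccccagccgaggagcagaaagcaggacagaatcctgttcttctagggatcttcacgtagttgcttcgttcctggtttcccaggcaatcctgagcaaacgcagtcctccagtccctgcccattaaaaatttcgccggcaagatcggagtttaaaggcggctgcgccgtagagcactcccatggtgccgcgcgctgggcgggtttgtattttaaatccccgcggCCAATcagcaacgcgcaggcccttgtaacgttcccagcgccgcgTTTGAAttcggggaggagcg
Cdk1: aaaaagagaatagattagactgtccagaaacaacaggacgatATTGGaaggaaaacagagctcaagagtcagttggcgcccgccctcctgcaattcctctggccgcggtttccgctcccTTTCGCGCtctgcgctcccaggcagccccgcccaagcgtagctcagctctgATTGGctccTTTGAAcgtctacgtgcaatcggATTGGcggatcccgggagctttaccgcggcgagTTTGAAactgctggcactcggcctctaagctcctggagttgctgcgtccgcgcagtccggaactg
Aurka: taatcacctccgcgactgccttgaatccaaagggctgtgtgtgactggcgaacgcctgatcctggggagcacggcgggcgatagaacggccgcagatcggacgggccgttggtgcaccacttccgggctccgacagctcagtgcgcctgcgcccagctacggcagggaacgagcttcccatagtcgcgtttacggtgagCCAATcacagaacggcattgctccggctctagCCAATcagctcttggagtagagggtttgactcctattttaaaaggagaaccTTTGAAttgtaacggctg
Mcm6: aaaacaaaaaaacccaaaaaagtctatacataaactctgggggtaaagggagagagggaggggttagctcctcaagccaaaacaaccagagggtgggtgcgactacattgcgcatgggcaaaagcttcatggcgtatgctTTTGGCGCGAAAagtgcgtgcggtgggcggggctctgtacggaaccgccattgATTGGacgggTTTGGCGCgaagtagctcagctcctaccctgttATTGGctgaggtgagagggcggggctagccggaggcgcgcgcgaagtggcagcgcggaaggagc
In Cdc20 the homology word began at −18 from the start, between CCAAT words at −53 and −8. In Plk1 it began at 31 and in Aurka at 33, both after the start. Cdk1 held TTTGAA at −71 and −15 and CCAAT on the reverse strand at −208, −80 and −48, and also an E2F word at −131. Mcm6 held no homology word, CCAAT on the reverse strand at −57 and −14, and E2F words at −110, −106 and −47, of which the first and the second overlap and show as 1 run of capitals.

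RefSeq windows were matched for 31 of the 38 genes (34 windows); Aurkb, Ccna2, Ccnd1, Ccnd2, Ccne2, Mcm4 and Tpx2 had none in the table. The homology word occurred in 44.1% of the 34 windows and in 19.2% of all 32851 windows of that length. CCAAT occurred in 76.5% and 37.4%, and an E2F word in 20.6% and 2.26%. The homology word was present for 12 of 17 matched G2 and mitosis genes and 2 of 14 other members, and an E2F word for 1 of 17 and 6 of 14. CCAAT was present for most genes of both groups, 15 of 17 and 9 of 14. A match describes letters in the window and does not show that a factor binds.

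Several libraries stood apart before any comparison. ZT8 replicate 2 listed 5.06% of the tested genes at 0, against 0.703% to 1.26% in the other 6 samples. Transcripts from the Y chromosome (Uty, Kdm5d, Ddx3y, Eif2s3y) summed to 33.1 to 84.6 TPM in 5 samples but to 0.0162 and 0.00868 TPM in ZT20 replicates 3 and 4, which are labelled male like the rest. Library names follow numbers at ZT20 and letters at ZT8, so a batch behind those names and the clock time cannot be told apart. TPM, a transcript count scaled for length and library, adds up to the same total in each sample, so the sequencing depth of each library is unknown. All 15 neuronal markers were detected, with sums of 23264 to 29484 TPM at ZT20 and 18965 to 25625 TPM at ZT8.

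The proliferation genes were a small part of these ganglia. Together they made up 0.0278% to 0.0451% of all TPM, and 29 of the 38 had a mean under 10 TPM. The sum over the 38 genes was 451, 278, 314 and 333 TPM in ZT20 replicates 1 to 4 and 354, 330 and 288 TPM in ZT8 replicates 1 to 3. Pcna, Ccnd1 and Ccnd3, which resting cells also use, were the most abundant, Ccnd1 and Ccnd3 with means over all samples of 41.4 and 32.9 TPM and Pcna above both. Mki67, the usual marker of cycling cells, had a mean of 1.03 TPM and was just inside the mean of 1 TPM required for testing, while the checkpoint kinase Bub1b was just outside at 0.999 TPM. In all, 34 members were tested; Bub1, Bub1b, Cenpe and Cenpf were under that limit and are given as values only. Plk1 and Mki67 met the limit only through ZT20, with ZT8 means of 0.495 and 0.652 TPM. Of the values of the 38 genes, 4 were listed at 0, those of Plk1, Bub1, Bub1b and Cdc20, all in ZT8 replicate 2. In the GENCODE M21 annotation 10 of the 38 overlap another coding gene, among them Ccnd1, Mcm7, Cdc20 and Ube2c, and whether counting used strand is not given in the sources used here, so their levels are less certain.

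**Figure D1:**
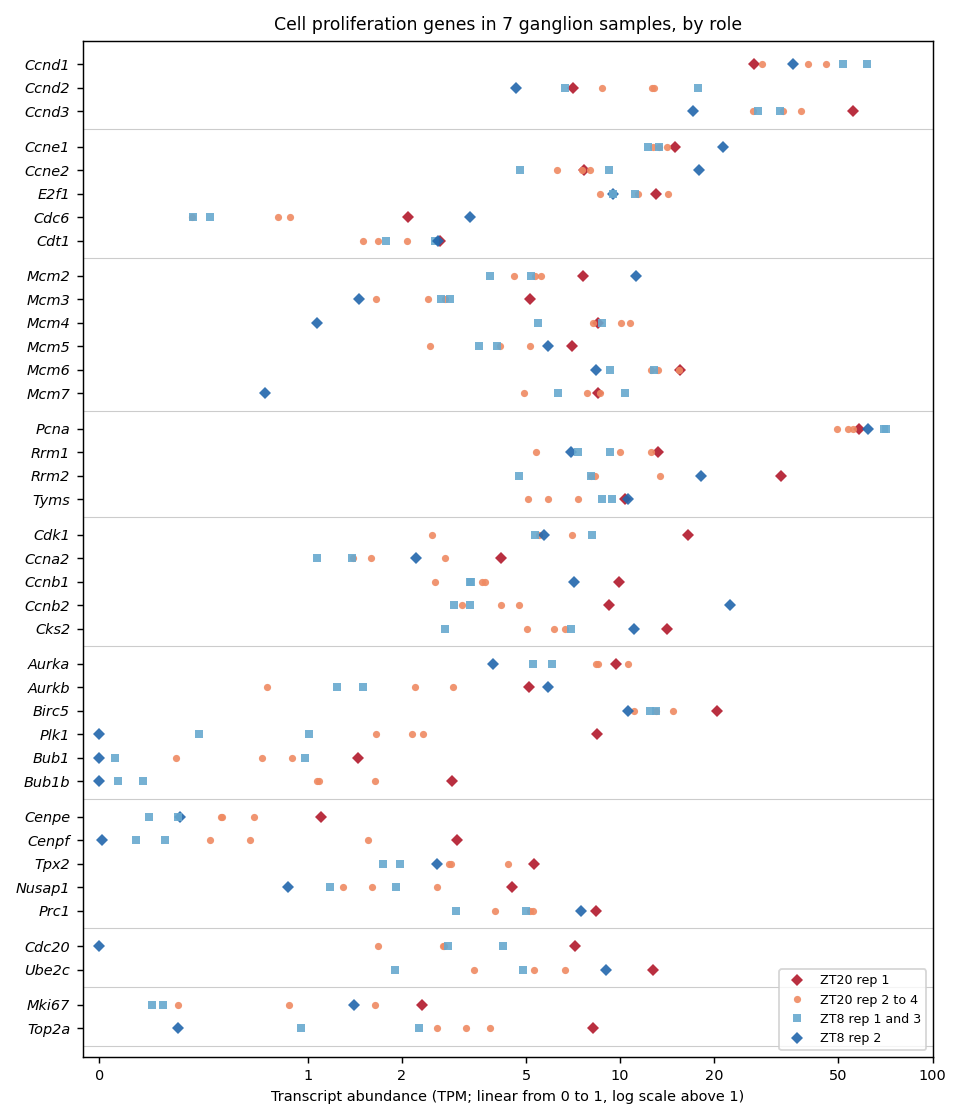
Transcript abundance (TPM) of the 38 genes in each of the 7 samples, grouped by role in the order of the text. Each symbol is 1 sample. For most G2 and mitosis genes, from Cdk1 downwards, ZT20 replicate 1 (red diamonds) lies to the right of the other ZT20 samples, while Ccnd1, Ccnd2 and Mcm4 do not show this.

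Most genes of G2 and mitosis, 17 of 20, were highest of all samples in ZT20 replicate 1. For 31 of the 38 members the highest ZT20 value was in replicate 1, against 20.6% of all tested genes, and for 24 it was the highest of all 7 samples, against 11.3%. Replicate 1 was at least 2-fold above the mean of the other ZT20 samples for 18 of 38 members (47.4%), against 2.12% of the 14800 tested genes and 3.44% of those with a mean under 15 TPM. Of the 20 G2 and mitosis genes 15 were past that fold, and of the 18 other members 3 were: Cdc6, Mcm3 and Rrm2. Replicate 1 was singled out after its values were seen, so these counts are a description. The summed TPM of the 20 G2 and mitosis genes was 155 in ZT20 replicate 1 and 68.6, 63.4 and 82.5 in replicates 2 to 4. The ZT8 sums were 65.4, 91.1 and 49.1. Without replicate 1 the ZT20 sums were 71.5 ± 9.90 TPM (SD, n = 3), inside the range of the ZT8 sums.

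**Figure D2:**
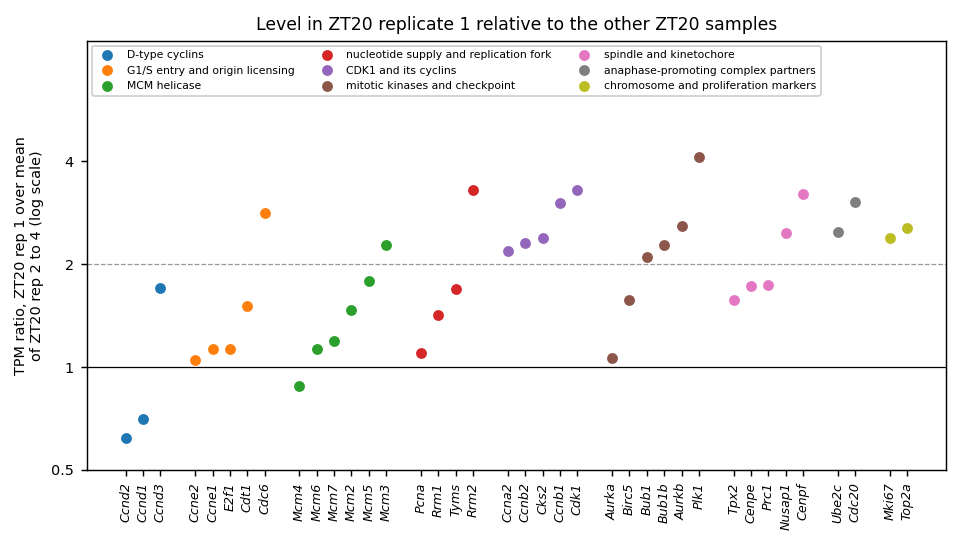
Ratio of TPM in ZT20 replicate 1 to the mean of ZT20 replicates 2 to 4 for each of the 38 genes (log scale), coloured by role. The solid line is a ratio of 1 and the dashed line a ratio of 2. Ratios run from 0.619 for Ccnd2 to 4.10 for Plk1, and the 5 genes of CDK1 and its cyclins all lie above 2.

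All 5 genes of CDK1 and its partners were past that fold in ZT20 replicate 1. Cdk1 (ENSMUSG00000019942), the kinase that starts mitosis, was at 16.5, 7.01, 2.49 and 5.51 TPM across the ZT20 replicates, with 8.11, 5.70 and 5.33 TPM for ZT8. Ccnb1 (ENSMUSG00000041431), cyclin B1, was at 9.91, 3.60, 2.56 and 3.69 TPM and at 3.33, 7.11 and 3.30 TPM. In both genes ZT20 replicate 1 was the highest sample and the groups overlapped. Ccnb2 (ENSMUSG00000032218), cyclin B2, was at 9.24, 4.76, 3.12 and 4.17 TPM at ZT20 and at 2.95, 22.5 and 3.30 TPM at ZT8, so that ZT8 replicate 2 was the highest. Cks2, a small subunit that binds CDK1, was at 14.2, 6.14, 6.65 and 5.04 TPM and at 6.97, 11.04 and 2.75 TPM. Ccna2, cyclin A2, ranged from 1.40 to 4.17 TPM at ZT20 and from 1.07 to 2.22 TPM at ZT8. None of the 5 passed the test between clock times, with limma adjusted p-values of 0.427 to 0.983.

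Plk1 and Aurka, both mitotic kinases, had the groups apart. Plk1 (ENSMUSG00000030867), the polo-like kinase of mitotic entry, was at 8.42, 2.34, 1.66 and 2.16 TPM in the ZT20 replicates, with 1.01, 0 and 0.476 TPM for ZT8. Every ZT20 sample was above every ZT8 sample, and replicate 1 stood at 4.10 times the mean of the other ZT20 samples. The Plk1 difference was 1.49 on the log2(TPM + 1) scale with a standard error of 0.47, and it did not pass (limma adjusted p = 0.0626). Without ZT20 replicate 1 and ZT8 replicate 2 it was 0.82 (limma adjusted p = 0.0785). Over the 17 alternatives that tested Plk1, the difference ran from 0.82 to 2.91, and it passed in none (limma adjusted p of 0.0608 to 0.196).

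Aurka (ENSMUSG00000027496), the Aurora A kinase of centrosomes and spindle poles, was at 9.70, 8.53, 8.37 and 10.6 TPM in the ZT20 replicates. Its ZT8 values were lower, 5.26, 3.91 and 6.07 TPM. The groups did not overlap, and here ZT20 replicate 1 was close to the others, at 1.06 times their mean. Aurka averaged 9.31 ± 1.06 TPM (SD, n = 4) at ZT20 against 5.08 ± 1.09 TPM (SD, n = 3) at ZT8, and its difference of 0.77 on the log2 scale (standard error 0.20) passed (limma adjusted p = 0.036). The call was lost in 13 of 18 alternatives, among them median-ratio scaling (0.57, limma adjusted p = 0.0766) and quantile normalization (0.44, limma adjusted p = 0.183). It was also lost without any 1 of ZT20 replicates 1 to 4 (limma adjusted p = 0.0971, 0.0621, 0.0947 and 0.115) and without ZT8 replicate 1 (limma adjusted p = 0.0592). Over the 18 alternatives the limma adjusted p ran from 0.0278 to 0.303, and the difference was positive in each. Of the 20 G2 and mitosis genes, Aurka was the 1 whose highest ZT20 value was not in replicate 1.

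Its relative Aurkb, the Aurora B kinase of the centromere, was at 5.11, 2.21, 0.806 and 2.93 TPM at ZT20 and at 1.24, 5.87 and 1.51 TPM at ZT8. Aurkb was thus highest in ZT8 replicate 2 and next in ZT20 replicate 1, with overlapping groups. Birc5 (survivin), which works in the same complex as Aurora B, was at 20.4, 13.0, 11.04 and 14.7 TPM and at 13.0, 10.6 and 12.5 TPM. Bub1b, the checkpoint kinase under the test limit, was at 2.89, 1.07, 1.09 and 1.65 TPM at ZT20 and at 0.211, 0 and 0.091 TPM at ZT8, without overlap. Of the tested genes, 24.5% had all ZT20 samples above all ZT8 samples. Bub1, also under the limit, ranged from 0.366 to 1.45 TPM and from 0 to 0.985 TPM. In a fit without the filter, Bub1b differed by 1.24 on the log2 scale, short of the threshold (limma adjusted p = 0.0565), where 3.69% of 31897 genes passed.

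No tested spindle, kinetochore or anaphase gene passed the test between clock times. Tpx2, which brings Aurora A to spindle microtubules, was at 5.29, 2.89, 2.82 and 4.37 TPM in the ZT20 replicates, with 1.74, 2.59 and 1.97 TPM for ZT8. The groups did not overlap, but the difference of 0.62 (standard error 0.27) did not pass (limma adjusted p = 0.137). Cenpf, a kinetochore protein, was at 3.01, 0.722, 1.56 and 0.532 TPM and at 0.315, 0.0121 and 0.175 TPM, and Cenpe, the kinetochore motor, ranged from 0.585 to 1.10 TPM and from 0.240 to 0.385 TPM. Both were under the test limit, and in both all ZT20 samples were above all ZT8 samples, as for 24.5% of the tested genes. That share was not computed for genes under the limit. Every ZT8 library listed fewer genes above 0 (18297 to 22973) than every ZT20 library (24192 to 25238). Nusap1 and Prc1, which bundle spindle microtubules, ranged over 1.30 to 4.52 TPM and 3.97 to 8.36 TPM at ZT20 and over 0.903 to 1.92 TPM and 2.99 to 7.50 TPM at ZT8. Cdc20, the activator of the anaphase-promoting complex, was at 7.19, 1.68, 2.73 and 2.71 TPM and at 4.22, 0 and 2.81 TPM. Ube2c, its ubiquitin-conjugating enzyme, was at 12.8, 3.40, 5.30 and 6.68 TPM and at 4.90, 8.99 and 1.90 TPM.

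Top2a and Mki67 are widely used markers of cycling cells. Top2a (ENSMUSG00000020914), the topoisomerase that untangles chromosomes, was at 8.18, 3.21, 2.59 and 3.82 TPM in the ZT20 replicates, with 2.28, 0.379 and 0.968 TPM for ZT8. The groups did not overlap, with a difference of 1.30 (standard error 0.41) that did not pass (limma adjusted p = 0.0621). Without ZT8 replicate 1 it passed (1.63, limma adjusted p = 0.0423), and without ZT20 replicate 1 it was 1.01 (limma adjusted p = 0.131). Over the 17 alternatives that tested Top2a, the difference ran from 0.718 to 1.95 (limma adjusted p of 0.0423 to 0.24). Mki67 (ENSMUSG00000031004), a protein that coats mitotic chromosomes, was at 2.32, 0.378, 0.909 and 1.64 TPM and at 0.304, 1.40 and 0.250 TPM, with overlapping groups (limma adjusted p = 0.418).

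Of the 6 MCM genes, 1 (Mcm3) was at least 2-fold above the other ZT20 samples in replicate 1. The MCM proteins form the ring-shaped helicase that opens DNA at origins. Mcm6 (ENSMUSG00000026355) was at 15.6, 12.6, 13.2 and 15.4 TPM in the ZT20 replicates, with 12.8, 8.40 and 9.25 TPM for ZT8, so that the lowest ZT20 value was under the highest ZT8 value. Mcm4 was at 8.51, 8.20, 10.7 and 10.1 TPM and at 8.78, 1.07 and 5.47 TPM, and Mcm7 at 8.52, 4.94, 7.85 and 8.61 TPM and at 10.4, 0.793 and 6.32 TPM. Both were lowest in ZT8 replicate 2, while Mcm2 was highest there at 11.2 TPM against 3.84 to 7.62 TPM in the other samples. Mcm3 and Mcm5 were highest in ZT20 replicate 1, at 5.16 and 7.02 TPM. Adjusted p-values of the 6 subunits ran from 0.131 to 0.983 by limma.

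Pcna (ENSMUSG00000027342), the sliding clamp of DNA polymerases, was the 1 tested member with all ZT20 samples below all ZT8 samples. It was at 58.4, 55.6, 53.6 and 49.6 TPM and at 70.8, 62.0 and 70.1 TPM. Its difference of −0.31 (standard error 0.12) did not pass (limma adjusted p = 0.107), but it did under median-ratio scaling (−0.54, limma adjusted p = 0.0255) and with array weights (−0.38, limma adjusted p = 0.0308). Rrm2, the S-phase subunit of ribonucleotide reductase, was at 32.7, 8.08, 8.30 and 13.4 TPM and at 8.06, 18.1 and 4.73 TPM, highest in ZT20 replicate 1 and next in ZT8 replicate 2. Its partner Rrm1 ranged from 5.37 to 13.2 TPM at ZT20 and from 6.98 to 9.27 TPM at ZT8, and Tyms, which makes thymidylate, from 5.07 to 10.3 TPM and from 8.77 to 10.6 TPM.

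None of the 5 genes of S-phase entry and origin licensing passed the test (limma adjusted p of 0.515 to 0.907). E2f1, the factor that switches on replication genes, ranged from 8.61 to 14.3 TPM at ZT20 and from 9.49 to 11.1 TPM at ZT8. Ccne1 and Ccne2, the E-type cyclins of S-phase entry, ranged from 12.7 to 15.0 TPM and from 6.28 to 8.02 TPM at ZT20. At ZT8 their highest values, 21.4 and 17.8 TPM, were both in replicate 2. Cdc6, which loads the MCM ring, was at 2.09 TPM in ZT20 replicate 1 and 3.30 TPM in ZT8 replicate 2, against 0.444 to 0.917 TPM in the other 5 samples. Cdt1, the other loader, reached 2.65 TPM in ZT20 replicate 1, close to its 2.56 and 2.61 TPM in ZT8 replicates 1 and 2.

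No D-type cyclin was 2-fold above the other ZT20 samples in replicate 1. Ccnd1 (ENSMUSG00000070348) was at 26.8, 28.5, 45.5 and 39.9 TPM in the ZT20 replicates, with 61.9, 35.7 and 51.8 TPM for ZT8, lowest in ZT20 replicate 1. Ccnd2 was at 7.06, 12.6, 12.9 and 8.75 TPM and at 17.8, 4.65 and 6.66 TPM. Ccnd3 was at 55.5, 26.7, 33.3 and 37.8 TPM and at 32.6, 17.1 and 27.6 TPM, highest in ZT20 replicate 1. The summed D-type cyclins averaged 83.8 ± 10.9 TPM (SD, n = 4) at ZT20 against 85.2 ± 27.5 TPM (SD, n = 3). The log2 differences of Ccnd1 (−0.49) and Ccnd3 (0.55) did not pass, with limma adjusted p-values of 0.194 and 0.204. The length and GC correction was the alternative under which Ccnd1 passed (−0.82, limma adjusted p = 0.0345, with 8.95% of genes called). The 12 satellite glia markers summed to 8114 to 9831 TPM at ZT20 and 13227 to 16114 TPM at ZT8. Most of that sum was Apoe, a lipid carrier, at 6261 to 7615 TPM at ZT20 and 10620 to 13560 TPM at ZT8. By limma 3 of the 12 were lower at ZT20, against 3.61% of all tested genes, while 4 had a positive difference. Their part in the Ccnd1 values was not tested.

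Between clock times, 1 of 34 tested members (2.94%) passed an adjusted p of 0.05, against 16.4% of all 14800 tested genes (limma with Benjamini-Hochberg adjustment over all of them). That gene, Aurka, was higher at ZT20, as were 12.8% of all tested genes. No member was lower by limma, against 3.61% of all tested genes, and at an unadjusted p under 0.05 only Pcna was lower. An unadjusted p under 0.05 was found for 6 members, against 34.6% of tested genes. Ranges did not overlap for 5 tested members, with ZT20 above for Aurka, Plk1, Tpx2 and Top2a (24.5% of all tested genes) and below for Pcna (8.72%). Without ZT20 replicate 1 no member passed and 1125 genes of the table did (7.60%).

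The direction of the differences depended on the scaling and on which samples were kept. The difference was positive for 25 of 34 members, with a median of 0.24, against 66.4% and a median of 0.23 over all tested genes. Median-ratio scaling moved the median of all tested genes to 0.033 and left 19 members positive. Quantile normalization moved it to 0.0046 and left 14. The length and GC correction moved it to −0.0083 and left 15. Of the genes called, 78.1% were higher at ZT20 in the fit as reported, and 49.3%, 55.7% and 40.9% under these 3 alternatives. The median of the members stayed near that of all genes in each of these 3, at 0.039, −0.08 and −0.061. Without ZT20 replicate 1, 18 members were positive, with a median of 0.096 against 0.235 over all tested genes. Without ZT8 replicate 3, 18 were positive, with a median of 0.107 against 0.252. Leaving out any other sample gave 22 to 26 positive members and medians of 0.235 to 0.332.

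**Figure D3:**
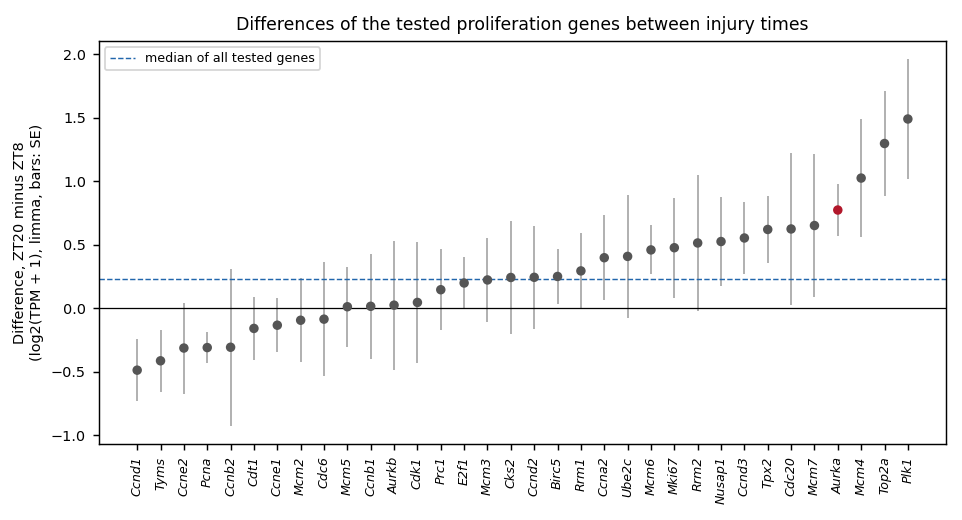
Differences between ZT20 and ZT8 on the log2(TPM + 1) scale for the 34 tested members, with standard errors from limma, ordered by size. The red point is Aurka, the 1 gene past an adjusted p of 0.05, and the dashed line is the median of all tested genes, 0.23. Plk1 and Top2a have larger differences than Aurka but also larger standard errors.

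Other cell cycle genes were taken from lists chosen with earlier results known. Of 53 other mitosis genes 37 were tested, with 1 higher and 1 lower at ZT20 and a median difference of 0.33. Over all tested genes 12.8% were higher and 3.61% lower. Cdca2, which recruits a phosphatase to chromatin, averaged 2.39 ± 0.749 TPM (SD, n = 4) at ZT20 against 0.418 ± 0.336 TPM (SD, n = 3) and was higher at ZT20 (limma adjusted p = 0.0244). It met the limit of 1 TPM only through the ZT20 samples, where it is high. Mad2l1, a spindle checkpoint protein, averaged 8.54 ± 1.19 TPM (SD, n = 4) at ZT20 against 18.8 ± 7.89 TPM (SD, n = 3) and was lower at ZT20 (limma adjusted p = 0.0379). Of 35 other replication genes 30 were tested, and Rfc4, a subunit of the clamp loader, was lower at ZT20, with 12.3 ± 1.95 TPM (SD, n = 4) at ZT20 against 24.3 ± 4.61 TPM (SD, n = 3) (limma adjusted p = 0.0166). Among 15 cell cycle inhibitors and pocket proteins 14 were tested, and Btg1, an antiproliferative factor, was lower at ZT20, with 9.004 ± 4.08 TPM (SD, n = 4) at ZT20 against 26.2 ± 13.3 TPM (SD, n = 3) at ZT8 (limma adjusted p = 0.0366). Among 15 other cyclin-dependent kinases and E2F factors 13 were tested, with a median difference of 0.049. ZT20 replicate 1 was at least 2-fold above the mean of the other ZT20 samples for 20 of the 53 mitosis genes and for 4 of the 35 replication genes.

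Markers of neutrophils and their precursors were also highest in ZT20 replicate 1. The 12 markers of neutrophils and their marrow precursors summed to 5832 TPM in ZT20 replicate 1 and to 1269, 923 and 1207 TPM in the other ZT20 samples. They summed to 346, 1139 and 122 TPM in the ZT8 replicates. ZT8 replicate 2 had the highest ZT8 sum of these markers, and also of the G2 and mitosis genes, where Ccnb2 alone gave 22.5 of 91.1 TPM. Plk1, Bub1, Bub1b, Cdc20, Cenpf, Top2a, Nusap1, Aurka and Birc5 were lowest of all samples in that same library. ZT8 replicate 2 was also the lowest sample for 40.2% of all tested genes, so low values there were common. The tested genes do not include Bub1, Bub1b and Cenpf. All 12 neutrophil and precursor markers were highest in ZT20 replicate 1 and at least 2-fold above the mean of the other ZT20 samples. Of these markers, 3 were higher at ZT20 by limma, against 12.8% of all tested genes. Ngp and S100a8, granule and cytosolic proteins of this lineage, had the highest means, and Ngp was at 1854 TPM in ZT20 replicate 1 against 354 to 503 TPM in the other ZT20 samples. Elane, made in dividing precursors of the marrow and named after its values were seen, was at 312, 14.7, 18.6 and 17.9 TPM and at 4.48, 47.4 and 0 TPM. The part of such cells in the levels of the proliferation genes was not tested.

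**Figure D4:**
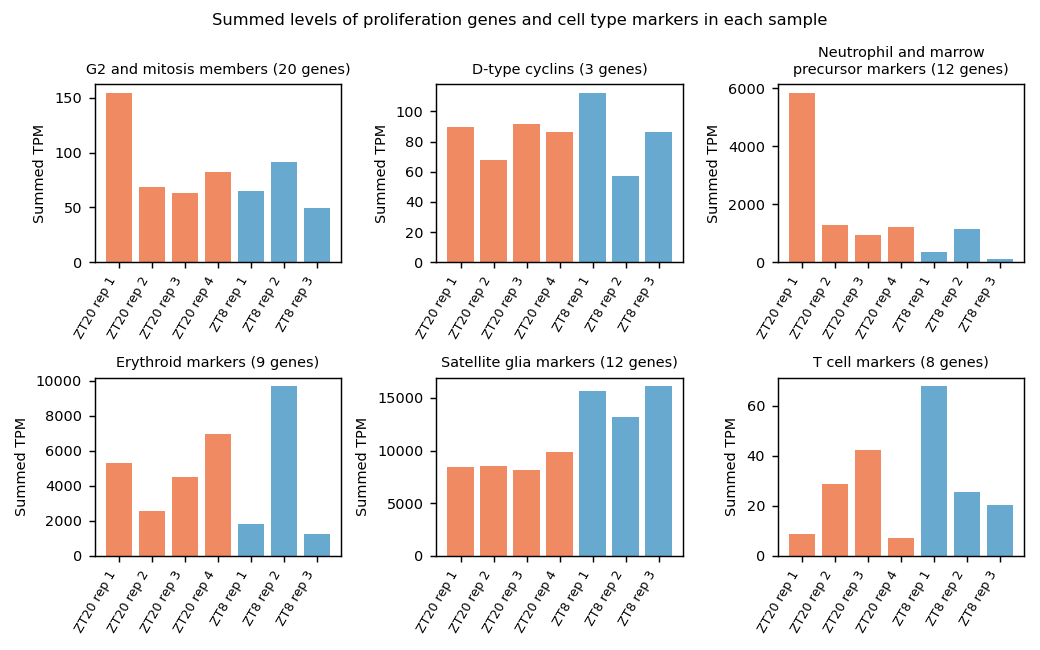
Summed TPM of the 20 G2 and mitosis members, the 3 D-type cyclins and 4 lists of cell type markers in each of the 7 samples (bars from 0; orange ZT20, blue ZT8). ZT20 replicate 1 has the highest bar for the G2 and mitosis members (155) and for neutrophil and marrow precursor markers (5832), and ZT8 replicate 2 the highest for erythroid markers (9691).

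Markers of other cell types are given for the same libraries. The 9 erythroid markers, led by Hba-a2 and Hbb-bs, summed to 5328, 2550, 4487 and 6953 TPM at ZT20 and to 1835, 9691 and 1224 TPM at ZT8. Of the 9, 3 were highest of all samples in ZT20 replicate 1 (Klf1, Hemgn and Car2, named after their values were seen). The rest were highest in ZT20 replicate 4 or ZT8 replicate 2. Klf1 was at 8.74 TPM in ZT20 replicate 1 against 1.83 to 5.38 TPM in the other ZT20 samples, and Hemgn at 5.09 against 0.837 to 2.83 TPM. The 8 T cell markers summed to 8.71 TPM in ZT20 replicate 1, 7.15 to 42.1 TPM in the other ZT20 samples and 20.3 to 67.7 TPM at ZT8. The sum of 6 B cell markers was 3.79 TPM in ZT20 replicate 1 and 5.66 to 12.1 TPM elsewhere. The 6 plasma cell markers summed to 267 TPM there and 354 to 935 TPM elsewhere, but Sdc1 and Xbp1, which other cells also express, made up 96.1 and 159 TPM of the 267. Jchain, the joining chain of secreted antibodies, was lowest in ZT20 replicate 4, at 4.18 TPM against 10.2 TPM in replicate 1. Macrophage markers (13 genes) summed to 702 TPM there, 353 to 482 TPM in the other ZT20 samples and 374 to 857 TPM at ZT8. Jchain and the next 2 genes are named after their values were seen. The complement gene C1qb was at 44.8 TPM in ZT20 replicate 1 and 42.3 to 61.7 TPM in the other ZT20 samples, while Lyz2, which neutrophils share, was at 525 TPM against 199 to 264 TPM. Endothelial (10 genes), fibroblast (8) and pericyte (8) markers in ZT20 replicate 1 summed to 125, 112 and 81.0 TPM, and Schwann cell myelin genes (10) to 1146 TPM. These lay at 109 to 123, 105 to 129, 93.8 to 109 and 1176 to 1292 TPM in the other ZT20 samples. Each sum was mostly 1 gene. In ZT20 replicate 1, Egfl7 gave 111.9 of the 125 TPM and Dcn 76.5 of the 112. Rgs5 gave 74.2 of the 81.0 TPM and Pmp22 937 of the 1146. No marker of these lists was at 0 in all samples.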

How the data were processed

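RNA-seq of neuron-enriched ganglia was deposited by the authors as 1 table of TPM for 7 samples, so read counts and depth are unknown. The submitters' processing notes name FastQC 0.11.9, Trim Galore 0.6.6, Salmon 1.6.0, DESeq2 1.34.0 and the build GRCm39, with no order; the annotation release is not given in the sources used here. Genes averaging 1 TPM or more across the 7 samples entered the test, on log2(TPM + 1), which understates the change of low genes. limma 3.58.1 (R 4.3.3) compared ZT20 with ZT8 over all 14800 genes, with Benjamini-Hochberg adjustment and a threshold of 0.05. In tests on simulated data with 200 of 14800 genes changed by 1.5 on the log2 scale, 57.5% of them were called and 6.5% of the calls were unchanged genes. The simulated noise was independent between genes, without an outlying library or a shift shared by all genes. These shares therefore cannot be carried over to the real data.

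The members, the 4 pathway lists and the 12 marker lists were chosen with earlier results of these data known. All members were described, and in each pathway list up to 6 called genes with the largest difference were named. In marker lists the rule was to name the 2 with the highest mean. It was followed in some lists only, and other markers were named as well. Alternatives were another pseudocount (0.1), filter (none, or a mean of 5 TPM) and scaling, array weights, a replicate block and leaving out each sample. Chosen after seeing the data were removal of each sample's loess trend (span 0.3) with length and GC content from GENCODE M21, this with the block, and leaving out 2 pairs of libraries.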

Additional observations from a re-analysis of the deposited data

Results flagged for a closer look

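Ccnb1 and Plk1 each had 1 ZT20 sample far from the other 3. Ccnb1 reached 9.91 TPM in ZT20 replicate 1, where the other 3 lay between 2.56 and 3.69 TPM, a gap of 0.847 of the group's range (Dixon's rule). Plk1 reached 8.42 TPM in the same library, with the rest between 1.66 and 2.34 TPM, a gap of 0.9 of the range. About 1 in 20 groups is marked by chance, which for 38 genes comes to 1.9, and 2 were marked (5.26%). Over all 14800 tested genes 1045 (7.06%) were marked, 151 of them (1.02%) with ZT20 replicate 1 as the high sample, as in both members.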

How the results depend on the processing

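Counts of called genes depended on the processing. The 2433 calls by limma (1899 higher, 534 lower) became 1178 (978 and 200) with no filter, 3899 (2982 and 917) with array weights, 1319 (540 higher) after the length and GC correction, and 374 (178 and 196) with that correction and the block. Median-ratio scaling gave 1128 higher and 1160 lower, quantile normalization 1023 and 814. Without ZT20 replicate 1 and ZT8 replicate 2 together 339 were lower. Without ZT20 replicates 3 and 4, 0 passed by limma (0 higher, 0 lower), with 2425 at an unadjusted p under 0.05. Leaving out 1 sample at a time gave 624 to 3055 calls, 543 to 2374 higher and 81 to 681 lower. Members called higher were 0 with no filter, median-ratio scaling, quantile normalization, the block, the length and GC correction with or without the block, and without either pair of libraries, and 0 to 1 leaving out 1 sample. Members called lower were 1 with median-ratio scaling and array weights (Pcna) and with the length and GC correction (Ccnd1), and 0 to 0 leaving out 1 sample. The causes were not tested.

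No member whose sign turned had passed the test. Median-ratio scaling turned the sign of E2f1 (−0.0157), Mcm5 (−0.18), Cdk1 (−0.15), Ccnb1 (−0.17), Aurkb (−0.14) and Prc1 (−0.0514). Quantile normalization turned the sign of Ccnd2 (−0.0636), E2f1 (−0.13), Mcm3 (−0.14), Mcm5 (−0.33), Rrm1 (−0.0363), Cdk1 (−0.28), Ccnb1 (−0.31), Cks2 (−0.10), Aurkb (−0.27), Birc5 (−0.0497) and Prc1 (−0.19). Array weights turned the sign of Ccnd2 (−0.0718), Ccne1 (0.0602), Cdc6 (0.32), Mcm2 (0.23), Cdk1 (−0.41), Ccnb2 (0.19) and Cdc20 (−0.0145). The length and GC correction turned the sign of Ccnd2 (−0.34), E2f1 (−0.0683), Mcm3 (−0.0779), Mcm5 (−0.27), Rrm1 (−0.18), Cdk1 (−0.36), Ccnb1 (−0.054), Aurkb (−0.0101), Prc1 (−0.10) and Mki67 (−0.24). Leaving out ZT20 replicate 1 with ZT8 replicate 2 turned the sign of Ccne1 (0.0599), Ccne2 (0.10), Cdc6 (0.21), Mcm2 (0.17), Mcm3 (−0.21), Mcm5 (−0.00054), Mcm7 (−0.20), Cdk1 (−0.42), Ccnb1 (−0.0217), Ccnb2 (0.27) and Cdc20 (−0.42). Leaving out ZT20 replicates 3 and 4 turned the sign of Mcm5 (−0.0352) and Ccnb2 (0.0599). Leaving out 1 sample at a time, log2 differences ran for Aurkb −0.27 to 0.54, Ccnb1 −0.33 to 0.32, Ccnb2 −0.76 to 0.53, Ccnd2 −0.12 to 0.75, Ccne1 −0.28 to 0.10, Ccne2 −0.73 to 0.12, Cdc20 −0.10 to 1.10, Cdc6 −0.36 to 0.42, Cdk1 −0.36 to 0.41, Cks2 −0.22 to 0.62, Mcm2 −0.38 to 0.29, Mcm3 −0.00979 to 0.40, Mcm5 −0.18 to 0.23, Mcm7 −0.13 to 1.20, Prc1 −0.14 to 0.41 and Ube2c −0.0613 to 0.83.

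The replicate number as a block gave 1174 calls (891 higher, 283 lower) and no member past the threshold, and turned Mcm5 (−0.0483) and Aurkb (−0.041); with the length and GC correction it turned Ccnd2 (−0.25), E2f1 (−0.0406), Mcm3 (−0.0464), Mcm5 (−0.31), Rrm1 (−0.27), Cdk1 (−0.26), Aurkb (−0.0767), Prc1 (−0.0651) and Mki67 (−0.29). Samples share only a number: same-numbered samples correlated at −0.0141, 0.153 and 0.083 in their deviations from the group means, and not every sample correlated best with its own number.

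Depth is unknown in TPM, so precision at low levels, where most members lie, cannot be given; 4 members were below the limit for testing.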
